A study of Mus musculus with 4 samples.

Results

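The cytochrome P450 enzymes of families 1 to 3 are haem monooxygenases of the endoplasmic reticulum that oxidise drugs, toxicants, steroids and fatty acids. They were taken here as every row of the count table whose symbol begins with Cyp1, Cyp2 or Cyp3, then a subfamily letter and a number. The rule left out 10 of the 61 matching symbols (Cyp2e1, Cyp2c70, Cyp2a4, Cyp2b9, Cyp2b13, Cyp2c40, Cyp2d9, Cyp3a41a, Cyp3a41b and Cyp3a44), so that 51 of the 22155 symbols in the table were members. The data were messenger RNA sequencing of whole liver from wild-type C57BL/6 mice, a common inbred strain, aged 8 to 10 weeks. All mice drank the Lieber-DeCarli liquid diet with 5% ethanol for 10 days, so both groups share the ethanol feeding and neither is an untreated control. The gavage group (2 libraries) also received 1 binge of ethanol at 5 g/kg through a stomach tube and was killed 9 h later, and the other group (2 libraries) is labelled as chronic ethanol alone. The question was how the expression of these enzymes in ethanol-fed liver differed with and without the binge. The labels give neither the sex of the mice nor whether each library is a different animal. Each p-value therefore reflects only the variation among these libraries, and the labels do not say whether that is variation between animals.

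Expression of the drug-metabolising P450 genes in hepatocytes is set by ligand-sensing transcription factors. The aryl hydrocarbon receptor (Ahr) with its partner Arnt drives family 1, the constitutive androstane receptor (Nr1i3) drives Cyp2b10 and several Cyp2c genes, and the pregnane X receptor (Nr1i2) drives Cyp3a11. Hnf4a, a nuclear receptor of hepatocyte identity, sustains basal expression of many of them. Cyp2c and Cyp2j enzymes also convert arachidonic acid to epoxides and hydroxylated products, and several mouse Cyp2 and Cyp3a genes are expressed at different levels in male and female liver. The enzymes draw electrons from the reductase Por and from cytochrome b5, and need haem.

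RefSeq promoter sequence (GRCm38.p6, 250 bases before to 50 bases after the start of transcription) was matched for 42 of the 51 members. The letters CAAAGTCCA, a binding motif of Hnf4a, were searched on both strands. They occurred in the promoters of 6 members, Cyp2c65, Cyp2c67, Cyp2c68, Cyp2c69, Cyp3a11 and Cyp3a16, and in 0.475% of all 32851 promoters of that length. Of these members, 5 were expressed, and their promoters are shown because 3 of them (Cyp2c67, Cyp2c68 and Cyp2c69) lay lower after the gavage in both libraries while the other two overlapped between the groups. The windows are chr19:39648993-39649292, chr19:39741052-39741351, chr19:39886720-39887019, chr5:145879805-145880104 and chr5:145469674-145469973, all on the minus strand. Each is written 5′ to 3′ along the gene, with the motif in capitals.
Cyp2c67: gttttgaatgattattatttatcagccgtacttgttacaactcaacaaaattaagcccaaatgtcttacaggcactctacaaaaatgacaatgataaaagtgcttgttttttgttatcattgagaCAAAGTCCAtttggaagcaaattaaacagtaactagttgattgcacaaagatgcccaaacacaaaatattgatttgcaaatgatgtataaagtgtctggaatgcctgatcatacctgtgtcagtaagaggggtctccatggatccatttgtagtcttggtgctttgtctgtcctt
Cyp2c68: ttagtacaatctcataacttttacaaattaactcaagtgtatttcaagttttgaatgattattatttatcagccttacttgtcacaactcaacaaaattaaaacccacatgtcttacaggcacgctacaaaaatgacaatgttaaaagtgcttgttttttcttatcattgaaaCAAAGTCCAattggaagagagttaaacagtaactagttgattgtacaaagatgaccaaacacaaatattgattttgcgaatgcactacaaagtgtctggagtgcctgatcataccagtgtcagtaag
Cyp2c69: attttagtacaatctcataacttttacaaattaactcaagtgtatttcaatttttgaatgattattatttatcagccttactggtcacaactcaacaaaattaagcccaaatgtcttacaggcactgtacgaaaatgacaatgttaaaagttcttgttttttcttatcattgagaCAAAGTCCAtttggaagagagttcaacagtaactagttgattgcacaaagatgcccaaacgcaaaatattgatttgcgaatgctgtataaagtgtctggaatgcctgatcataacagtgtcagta
Cyp3a11: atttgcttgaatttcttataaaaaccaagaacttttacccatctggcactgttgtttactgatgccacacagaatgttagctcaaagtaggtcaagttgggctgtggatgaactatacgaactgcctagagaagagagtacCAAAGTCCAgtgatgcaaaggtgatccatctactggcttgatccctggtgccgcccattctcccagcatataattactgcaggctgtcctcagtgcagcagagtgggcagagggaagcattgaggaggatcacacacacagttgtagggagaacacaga
Cyp3a16: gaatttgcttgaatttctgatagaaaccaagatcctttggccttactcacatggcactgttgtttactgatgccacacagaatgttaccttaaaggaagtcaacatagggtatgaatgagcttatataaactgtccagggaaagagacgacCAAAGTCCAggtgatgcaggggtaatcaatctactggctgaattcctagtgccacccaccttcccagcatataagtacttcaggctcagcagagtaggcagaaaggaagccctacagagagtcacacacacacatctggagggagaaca

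In these windows the motif began 125, 77, 75, 109 and 99 bases before the start, in the order printed, always on the strand of the gene. The promoters of Cyp2c68 and Cyp2c69 were 91.1% identical over their alignment, those of Cyp3a11 and Cyp3a16 75.5% and those of Cyp2c67 and Cyp2c69 66.3%. The windows of Cyp2c67 and Cyp2c69 hold largely alike sequence, placed at an offset relative to the annotated starts. Both the 66.3% and the motif positions of 125 and 75 bases include that offset. A match of letters is a description of the window and not evidence of binding. The other motifs searched were each in a larger share of all promoters than the one shown. The core of the aryl hydrocarbon receptor site, GCGTG, was in 9 of the 42 members with a promoter, Cyp1a1 and Cyp1b1 among them, and in 32.4% of all promoters. The nuclear receptor half-site AGGTCA was in 13 of the 42 and in 16.3% of all promoters. The FOXA motif TGTTTAC was in 5 of the 42 and 3.65%, and the TATA box TATAAA in 20 of the 42 and 13.6%. The D-box TTATGTAA, a site of the clock-controlled factors Dbp, Tef and Hlf, was in 0 members and 0.938% of all promoters.

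Totals ran from 28791281 to 30347558 counts a library, and values are CPM, a gene's counts relative to the total of its library scaled by edgeR's TMM factor. Where 4 values stand in a row, the first pair is ethanol alone (replicates 1, 2) and the last pair is gavage (replicates 1, 2). Replicate 1 of ethanol alone stood apart. The summed level of 12 male-type liver genes outside the P450 superfamily was 7323 CPM there, against 145, 458 and 607 CPM in the others, and that of 14 female-type genes was 288 CPM, against 1397, 750.3 and 1144 CPM. The 4 Y-linked genes measured summed to 1, 1, 1 and 0 counts. Libraries numbered 1 in both groups held more skeletal muscle RNA (summed markers 303, 9.09, 648 and 1.46 CPM) and more adipocyte RNA (64.7, 8.49, 114 and 46.1 CPM). Of 7 adipocyte markers, 4 had no count in each library numbered 2, and 0 of 6 muscle markers were at 0 in any library. Most of the adipocyte sum in replicate 2 of the gavage group was Cidec, at 3.66, 0.529, 15.7 and 33.9 CPM. Kupffer cell markers, of liver macrophages, summed to 693, 636, 382 and 420.1 CPM. Of these, 10 of 10 had a log2 fold change below 0, 9 with an unadjusted p under 0.05. Over all tested genes 48.3% lay below 0, and 9.85% were lower at that threshold. Summed hepatocyte markers were 157178, 135538, 127199 and 147843 CPM. Since this is whole tissue, fewer hepatocytes and less RNA per hepatocyte cannot be told apart. The part of these differences in the results was not tested, and results are given with and without replicate 1 of ethanol alone.

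Of the 51 members, 38 passed the filter on low counts and were tested, and 3 had no count in any library (Cyp2j11, Cyp2j12 and Cyp2w1). The other 10 had between 1 and 35 counts in all (Cyp2b19, Cyp2b23, Cyp2c65, Cyp2c66, Cyp2d12, Cyp2d34, Cyp2j7, Cyp2j8, Cyp2j13 and Cyp2t4). A floor of 3 counts is 0.0955 to 0.11 CPM depending on the library, and covers counting error only. A mean of at least 100 CPM was reached by 21 members.

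The P450 members lay mostly lower after the binge. Of the 38 tested, 27 (71.1%) had a log2 fold change below 0, where 48.3% of all 13309 tested genes did, and their median log2 fold change was -0.61 against 0.02 for all tested genes. With edgeR's quasi-likelihood test, 0 members passed at an adjusted p under 0.05, as did 0% of all genes, and the smallest adjusted p of a member was 0.133 (Cyp2g1). At an unadjusted p under 0.05, 13 members (34.2%) were lower, against 9.85% of all genes, and 0 were higher, against 8.91%. For 17 members (44.7%) both gavage libraries lay below both libraries of ethanol alone, and for 0 both lay above, where 27.2% of all genes were lower without overlap and 27.5% higher. DESeq2 called 8 members, all lower, at an adjusted p under 0.05, beside 4.9% of all genes lower and 3.94% higher. Without replicate 1 of ethanol alone, 30 of the 38 (78.9%) were below 0, against 48.4% of genes. In that fit 9 (23.7%) were lower at an unadjusted p under 0.05, against 7.55%, and 0 were higher, against 5.36%. Of those 9, 8 were among the 13, and the ninth was Cyp1a2. The count of 13 became 7 without replicate 1 of the gavage group. The count of 0 higher members became 4 without replicate 2 of ethanol alone, which left the library with male-type expression as the only one of its group.

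**Figure D1:**
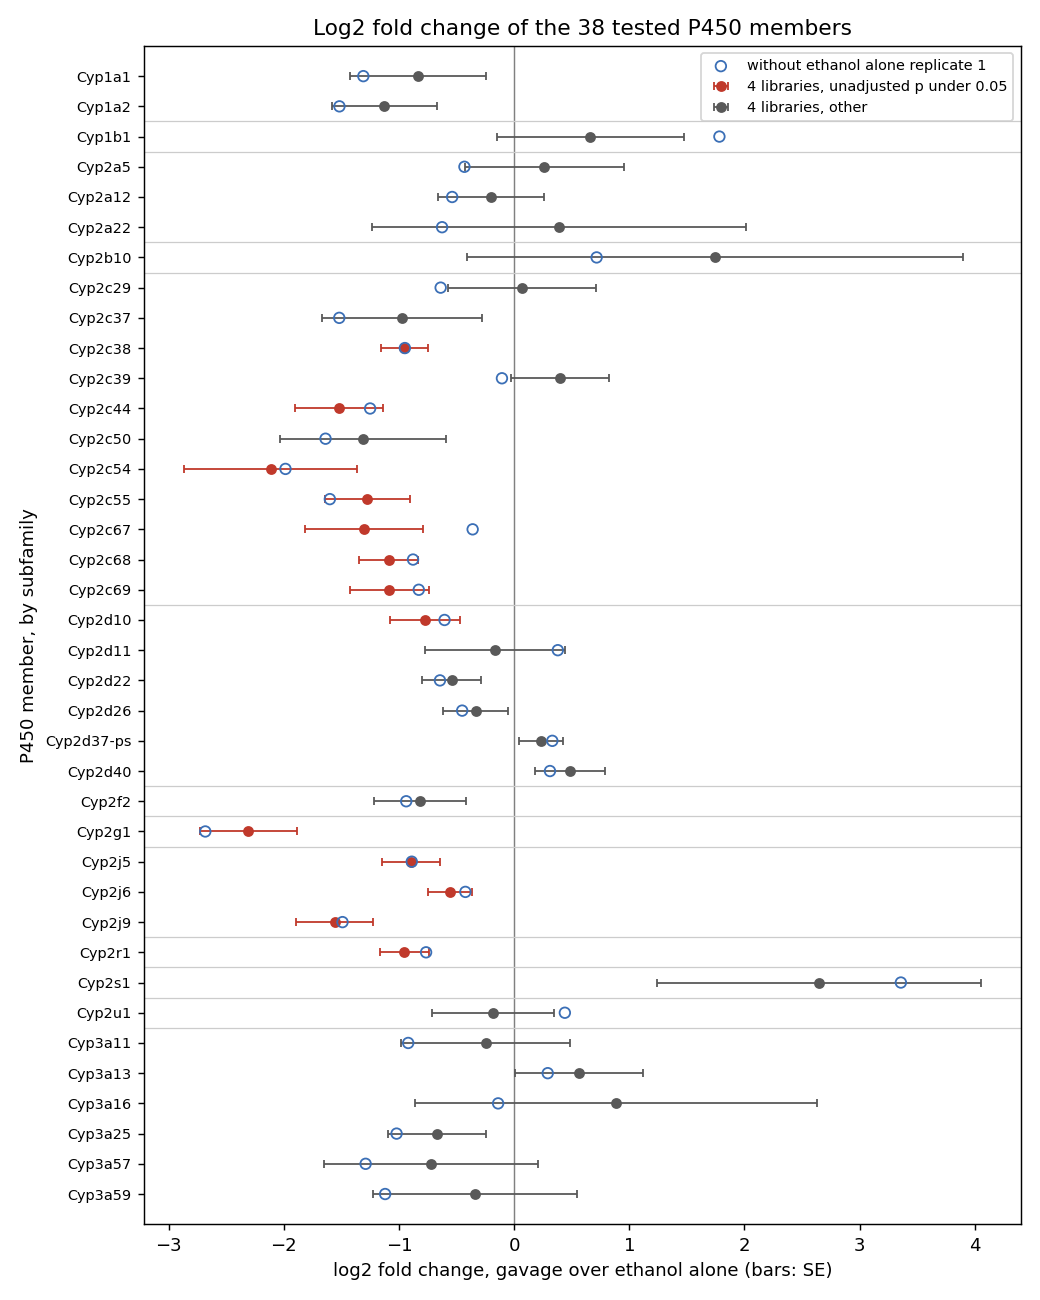
Log2 fold change (gavage over ethanol alone, horizontal axis) of the 38 tested members with its SE, grouped by subfamily. Filled points use all 4 libraries, with the 13 members at an unadjusted p under 0.05 in red, and open circles leave out replicate 1 of ethanol alone. All 13 lie to the left of 0.

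Summed expression was compared by subfamily. The sum over all members was 9348 and 15288 CPM with ethanol alone and 6238 and 11569 CPM after the gavage, so that the groups overlapped, and the ratio of the means was 0.723. The Cyp1a, Cyp2c, Cyp2f and Cyp2j sums had ratios of 0.458, 0.628, 0.567 and 0.551, and the Cyp2d sum 0.753. The Cyp3a sum (1174, 3235, 1119 and 2812 CPM) and the Cyp2a sum (609, 1572, 677 and 1573 CPM) had ratios of 0.892 and 1.03. Replicate 1 was the lower library of both groups for the Cyp1a, Cyp2a, Cyp2b, Cyp2c, Cyp2d, Cyp2f and Cyp3a sums, but not for Cyp2j. As a share of all member counts, Cyp1a took 4.32% and 4.72% with ethanol alone and 2.76% and 2.96% after the gavage, without overlap. Cyp2c took 40.2% and 40.3% against 39.1% and 32.8%, and Cyp2a 6.51% and 10.3% against 10.8% and 13.6%. An exact permutation test of these shares with 4 libraries cannot give a 2-sided p under 0.333. Over the 14 subfamilies with counts in every library, p ran from 0.333 to 1 and adjusted p (Benjamini-Hochberg) from 0.778 to 1. With so few libraries this test could not have passed the threshold and says nothing on whether the shares differ. Among the multigene subfamilies, members at an unadjusted p under 0.05 were lower for 7 of 11 tested in Cyp2c, 3 of 3 in Cyp2j, 1 of 6 in Cyp2d, and 0 of 2, 3 and 6 in Cyp1a, Cyp2a and Cyp3a. Over all tested genes 9.85% were lower at that threshold. The median log2 fold change was -1.09 in Cyp2c, -0.90 in Cyp2j, -0.98 in Cyp1a, -0.25 in Cyp2d, -0.29 in Cyp3a and 0.26 in Cyp2a. Without replicate 1 of ethanol alone these medians were -0.95, -0.89, -1.41, -0.07, -0.97 and -0.54, so the Cyp2a median changed its sign. It was -0.88 without replicate 2 of the gavage group and 1.47 without replicate 2 of ethanol alone. The Cyp3a median also changed its sign, to 0.83 when replicate 2 of ethanol alone was left out and to 0.29 when the first gavage library was, and it was -1.19 when the second gavage library was. The Cyp1a median ran from -1.43 to -0.47 (the latter without replicate 2 of ethanol alone) and the Cyp2d median from -0.41 (also without that library) to -0.07. Those of Cyp2c and Cyp2j ran from -1.21 to -0.95 and from -1.14 to -0.69 over the 4 libraries left out in turn.

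**Figure D2:**
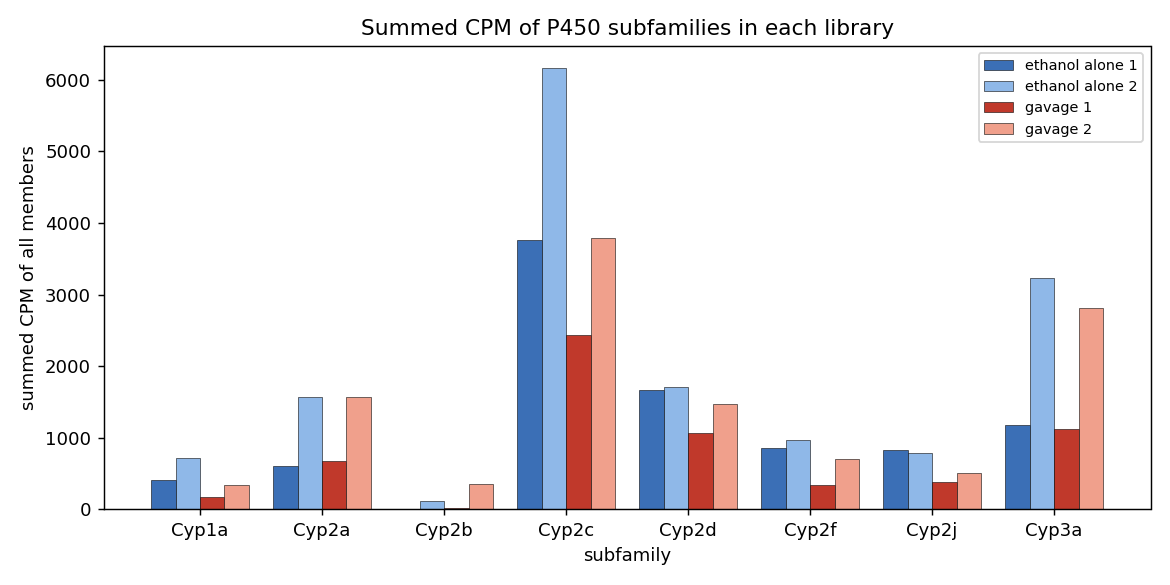
Summed CPM (vertical axis) of all members of 8 subfamilies, 1 bar per library. The Cyp1a, Cyp2c, Cyp2d, Cyp2f and Cyp2j bars of the gavage group average below those of ethanol alone, and the bars numbered 2 exceed those numbered 1 in both groups for all subfamilies drawn except Cyp2j.

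Family 1 holds the targets of the aryl hydrocarbon receptor. Cyp1a2 (chr9:57676937-57683703), which oxidises caffeine and aromatic amines, stood at 403 and 719.6 CPM with ethanol alone and at 172 and 342 CPM after the gavage. Both gavage libraries lay below both others, with a log2 fold change of -1.13 (SE 0.45, unadjusted p = 0.0536, edgeR adjusted p = 0.271). Without replicate 1 of ethanol alone it was -1.52 (unadjusted p = 0.0325). Its neighbour Cyp1a1, the inducible form, was low in every library, at 0.622, 1.35, 0.446 and 0.664 CPM. Cyp1b1, which hydroxylates oestradiol and is expressed mainly outside hepatocytes, stood at 2.49, 0.727, 3.92 and 1.16 CPM. It was higher in the library numbered 1 of each group, and the part of cell content in this was not tested.

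The Cyp2c genes, apart from Cyp2c44, lie in 1 cluster on chromosome 19. Of the 11 tested, 9 had a log2 fold change below 0, where 48.3% of all tested genes did. Cyp2c38 (chr19:39389556-39463075), an arachidonic acid oxidase, stood at 162 and 156 CPM with ethanol alone and at 74.9 and 89.4 CPM after the gavage. The libraries of each group were close to each other here, and the log2 fold change was -0.95 (SE 0.20, edgeR adjusted p = 0.1485). It was -0.95 without replicate 1 of ethanol alone as well. The neighbouring Cyp2c39 (chr19:39510862-39568529), a retinoic acid hydroxylase, had 5.86 and 13.5 against 14.4 and 11.2 CPM, with the groups overlapping and a log2 fold change of 0.40 (SE 0.42). The difference between these neighbours was not tested.

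Cyp2c44 (chr19:44005022-44029208, under its current symbol Cyp2c23), an epoxygenase, stood at 388 and 264 CPM against 80.2 and 147 CPM, a log2 fold change of -1.52 (SE 0.38, edgeR adjusted p = 0.171). Cyp2c54 (chr19:40037940-40073827), another epoxygenase, had 328 and 264 CPM with ethanol alone and 22.4 and 114 CPM after the gavage. Its libraries did not overlap, and its log2 fold change of -2.11 (SE 0.75, edgeR adjusted p = 0.242) was the lowest of the subfamily. The 2 gavage libraries of Cyp2c54 differed 5.1-fold, and the log2 fold change was -1.37 with the first of them left out and -3.73 with the second left out. Cyp2c50 (chr19:40089688-40113950) was also lowest in replicate 1 of the gavage group, at 650.2, 1027, 122 and 554.5 CPM (log2 fold change -1.31, SE 0.72, unadjusted p = 0.127). Cyp2c37 (chr19:39992424-40012243), an arachidonic acid hydroxylase, stood at 477, 1182, 195 and 649 CPM, and its groups overlapped.

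Of the expressed genes with the promoter motif, Cyp3a11 and Cyp3a16 overlapped between the groups. The other 3, Cyp2c67, Cyp2c68 and Cyp2c69, lay lower without overlap, as did 27.2% of all genes. Cyp2c68 (chr19:39688834-39741054) stood at 455 and 334 CPM against 171.5 and 199 CPM, a log2 fold change of -1.09 (SE 0.26, edgeR adjusted p = 0.161). Cyp2c69 (chr19:39842814-39886799) stood at 498 and 349.6 CPM against 248 and 151.5 CPM (-1.09, SE 0.34, edgeR adjusted p = 0.214). Cyp2c67 (chr19:39608842-39649051) stood at 160.5 and 55.1 CPM against 46.75 and 40.5 CPM (-1.30, SE 0.51, edgeR adjusted p = 0.265). Replicate 1 of ethanol alone was the highest library for all of them, and without it Cyp2c67 had a log2 fold change of -0.36 (unadjusted p = 0.12), Cyp2c69 -0.83 and Cyp2c68 -0.88. These genes are near-copies. Of all stretches of 50 bases in their annotated transcripts, 52.8%, 43.3% and 54.3% (Cyp2c67, Cyp2c68 and Cyp2c69) also occur in a transcript of another gene, most often the excluded Cyp2c40, so the counting could have split, lost or joined their reads. That share was 7.45% for Cyp2c38, 25.7% for Cyp2c54, 30.1% for Cyp2c37 and 0% for Cyp2c44.

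Cyp2c29 (chr19:39269405-39330713), an epoxygenase inducible through Nr1i3, was the most abundant member by mean CPM and did not share the lower level. It stood at 633 and 2516 CPM with ethanol alone and at 1462 and 1834 CPM after the gavage. The gavage libraries lay between the others, and the log2 fold change of 0.07 (SE 0.64) became -0.64 without replicate 1 of ethanol alone. Cyp2c55 (chr19:39007019-39042693), a form best known from the intestine, was low, at 3.04 and 4.86 against 1.43 and 1.83 CPM (-1.28 on the log2 scale, SE 0.37, edgeR adjusted p = 0.199).

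Cyp2j enzymes are epoxygenases of arachidonic acid, encoded side by side on chromosome 4. All 3 tested genes lay lower without overlap, as did 27.2% of all genes. Cyp2j5 (chr4:96628773-96664154), the abundant form of liver and kidney, stood at 728 and 694 CPM with ethanol alone and at 324 and 440.3 CPM after the gavage (log2 fold -0.90, SE 0.25, edgeR adjusted p = 0.197). Cyp2j9 (chr4:96568429-96591578) stood at 10.3 and 9.05 against 2.36 and 4.22 CPM (-1.56, SE 0.34, edgeR adjusted p = 0.149). Cyp2j6 (chr4:96516138-96553661) stood at 96.9 and 78.7 against 60.4 and 59.1 CPM (-0.56, SE 0.19, edgeR adjusted p = 0.237). Leaving out replicate 1 of ethanol alone gave -0.89, -1.49 and -0.42. Less than 1% of the 50-base stretches of each of these genes were shared with another gene. The remaining 5 members of the subfamily had at most 4 counts over all libraries.

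Cyp2g1 (chr7:26808892-26821205), best known from olfactory mucosa, had the lowest log2 fold change of all tested members, although at a low level. It stood at 3.15 and 5.55 CPM with ethanol alone and at 0.987 and 0.764 CPM after the gavage, a log2 fold change of -2.31 (SE 0.42, edgeR adjusted p = 0.133, DESeq2 adjusted p = 0.00106). In counts this was 86 and 168 against 31 and 23. It lies in the chromosome 7 cluster between members of Cyp2b and Cyp2a, of which none was lower at an unadjusted p under 0.05. Cyp2r1 (chr7:114549682-114562972), a microsomal 25-hydroxylase of vitamin D, stood at 22.2 and 16.7 against 9.74 and 10.3 CPM (-0.96, SE 0.21, edgeR adjusted p = 0.152). Cyp2f2 (chr7:27119909-27133660), which activates naphthalene, stood at 855 and 971 against 336 and 700.4 CPM (-0.82, SE 0.40, unadjusted p = 0.0917). Cyp2f2 and Cyp2r1 did not overlap between the groups, and neither shared a 50-base stretch with another gene.

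In the Cyp2d subfamily of chromosome 15, Cyp2d26 (chr15:82790101-82794294) was the most abundant. It stood at 889 and 1008 CPM against 612 and 892 CPM, with a log2 fold change of -0.34 (SE 0.28) and overlap of the groups. Cyp2d10 (chr15:82402846-82407195) stood at 492 and 379 against 201 and 308 CPM (-0.78, SE 0.30, unadjusted p = 0.0495), and 35.8% of its 50-base stretches occur in other genes. Cyp2d22 (chr15:82370527-82380260) stood at 201.5 and 223.5 against 119 and 172 CPM (-0.54, SE 0.26). Cyp2d40 and the pseudogene Cyp2d37-ps lay on the other side of 0, at log2 fold changes of 0.49 and 0.23, with overlapping groups. Cyp2d11 was under 1 CPM in every library.

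The Cyp2a and Cyp2b genes of chromosome 7 varied more within a group than between the groups. Cyp2b10 (chr7:25897620-25926624), the classical target of Nr1i3, had 0.622 and 108 CPM with ethanol alone and 12.9 and 352 CPM after the gavage. In counts these were 17, 3272, 405 and 10607, so that the libraries of ethanol alone differed 174-fold and those of the gavage group 27.3-fold. The log2 fold change was 1.75 (SE 2.15), 0.72 with the first library of ethanol alone left out, and -2.09 with the second gavage library left out. Cyp2a22 had 3.95, 274, 74.2 and 289.5 CPM, and Cyp2a5 (chr7:26835305-26843548), the coumarin hydroxylase, had 144, 547, 271 and 558 CPM. Both were lowest in replicate 1 of ethanol alone, and their log2 fold changes of 0.39 and 0.26 became -0.63 and -0.43 without it. Cyp2a12 (chr7:27029081-27037375), a steroid hydroxylase, had 461, 751, 331 and 726 CPM. Cyp2a12 and Cyp2a22 share 20.1% and 20.2% of their 50-base stretches with each other, and Cyp2a5 shares 28.1% with the excluded Cyp2a4.

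Of the Cyp3a genes, 0 of 6 tested had an unadjusted p under 0.05. Cyp3a11 (chr5:145854426-145879964), the main hepatic form and a target of Nr1i2, stood at 643 and 2261 CPM with ethanol alone and at 661 and 1784 CPM after the gavage. The libraries numbered 1 were low and those numbered 2 high in both groups, and the log2 fold change was -0.25 (SE 0.73). Cyp3a59 had the same order, at 9.85, 51.7, 11.4 and 37.4 CPM. Cyp3a25 (chr5:145977194-146009618) stood at 325, 538, 183 and 358 CPM, and shares 25.2% of its 50-base stretches with Cyp3a59. Cyp3a13 (chr5:137892932-137921619), which lies apart from the cluster, stood at 195, 281.5, 174 and 532 CPM (log2 fold change 0.57, SE 0.55). Cyp3a16 (chr5:145436309-145469723), described as a fetal form, had 0.366 CPM in replicate 1 of ethanol alone and 102.5, 89.7 and 99.8 CPM in the others. Those 3 libraries were close together, and without replicate 1 of ethanol alone its log2 fold change was -0.14, against 0.88 with it. Cyp3a57 was under 1 CPM in every library.

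**Figure D3:**
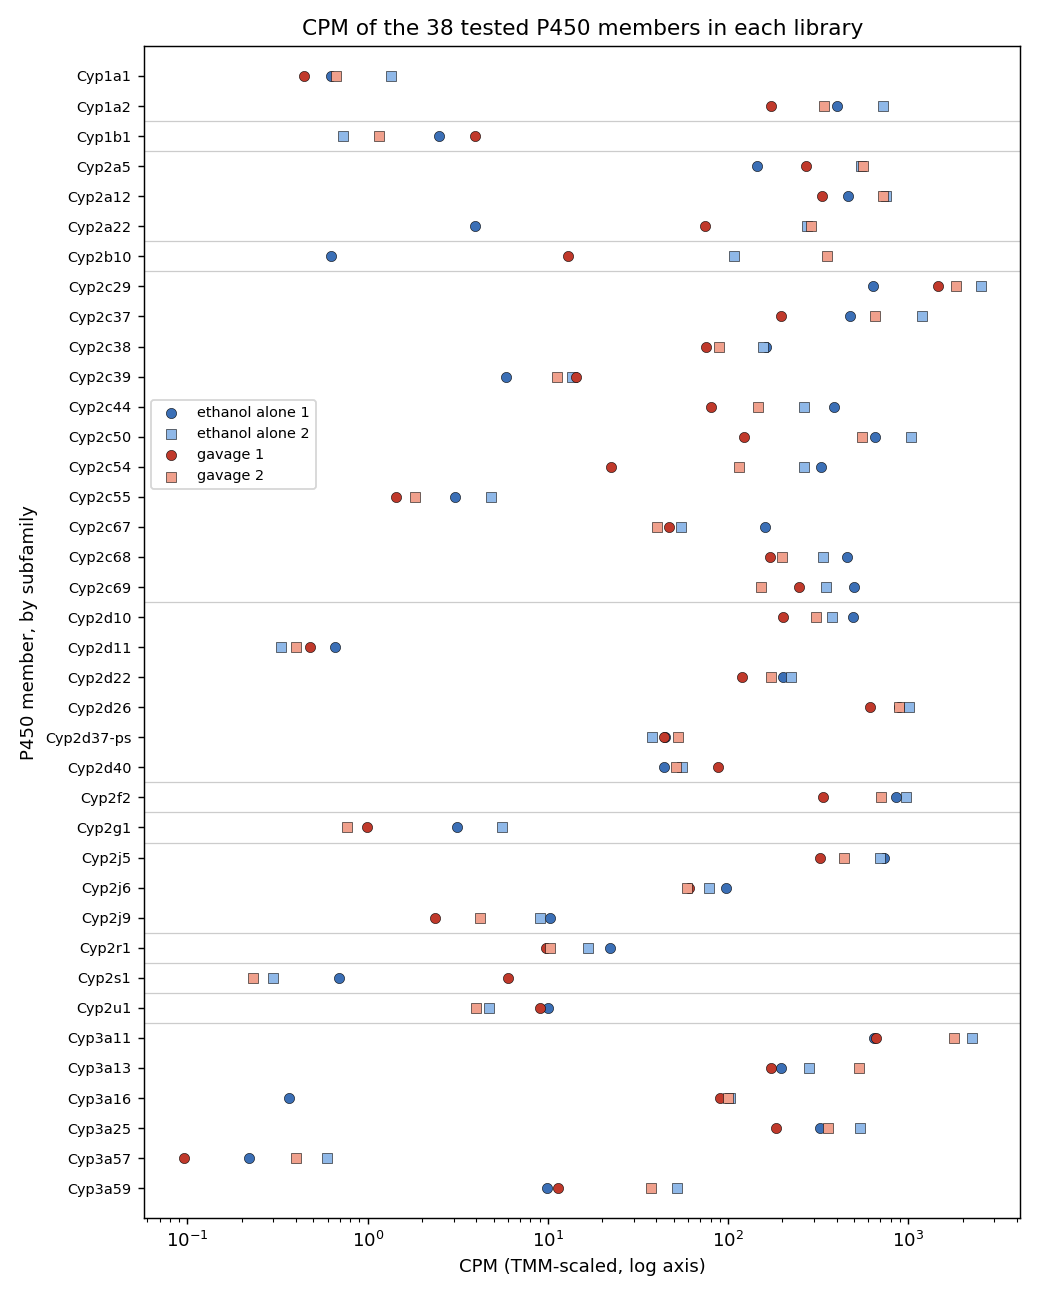
CPM (log axis) of the 38 tested members in each library, 1 point per library, grouped by subfamily. The gavage points lie to the left of both points of ethanol alone for 17 members, among them Cyp2c38, Cyp2c44 and the 3 Cyp2j genes, and replicate 1 of ethanol alone lies far to the left for Cyp2a22, Cyp2b10 and Cyp3a16.

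The 2 libraries of a group differed over all tested genes, not only in the members. The deviation of replicate 1 from its group mean correlated at 0.587 between the groups over all tested genes. In ethanol alone 22 of the 38 tested members were lower in replicate 1 than in replicate 2, and in the gavage group 28 were. In both groups together 19 members were, and they include Cyp1a2, Cyp2a5, Cyp2b10, Cyp2c29, Cyp2c37, Cyp2f2 and Cyp3a11. Cyp2s1, an epithelial form, went the other way in the gavage group, with 5.99 CPM in replicate 1 and 0.233 CPM in replicate 2 against 0.696 and 0.297 CPM with ethanol alone. Its log2 fold change of 2.65 (SE 1.41) was -1.07 without replicate 1 of the gavage group. Cyp2u1, a fatty acid hydroxylase, stood at 10.1, 4.72, 9.01 and 3.99 CPM, higher in both libraries numbered 1. Within the libraries numbered 1, 27 of the 38 members were lower after the gavage, and within those numbered 2, 31 were. The matching shares of all tested genes were not counted, neither for these counts nor for those of members lower in replicate 1.

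**Figure D4:**
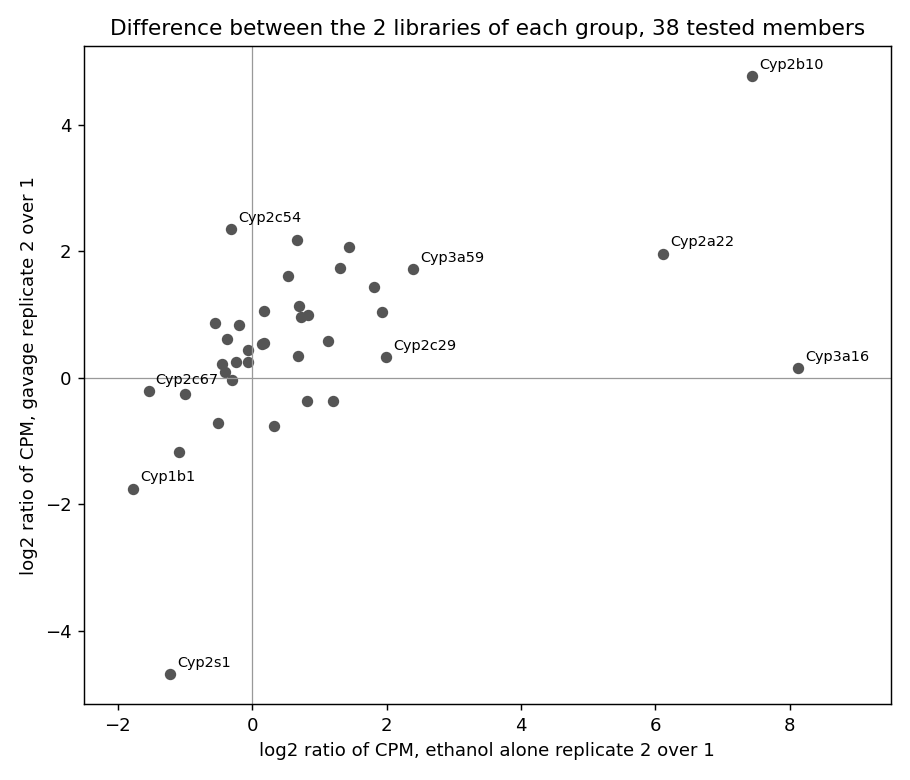
Log2 ratio of CPM between replicate 2 and replicate 1, in ethanol alone (horizontal axis) and in the gavage group (vertical axis), 1 point per tested member. The 19 members at upper right were higher in replicate 2 of both groups, among them Cyp2b10 at ratios of 174 and 27.3 and Cyp3a16 at 280 and 1.11.

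Levels of different genes can be compared per length, as CPM per kb of annotated exons. On that scale Cyp2c29 was the highest in 3 of the 4 libraries (822 CPM per kb in ethanol alone replicate 2, and 478 and 599 in the gavage libraries). In replicate 1 of ethanol alone Cyp2d26 was first at 496 CPM per kb, followed by Cyp2f2 at 422 and Cyp2j5 at 310.3. Cyp2d26 was second in both gavage libraries at 341 and 498 CPM per kb. Cyp2c37 was second in replicate 2 of ethanol alone at 648 CPM per kb and stood at 356 in replicate 2 of the gavage group, behind Cyp2d26. The order therefore differed between libraries of the same group, and neighbours in it were not separated beyond the spread.

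Among the receptors that control these genes, 2 of 11 tested were lower at an unadjusted p under 0.05 and 0 were higher, beside 9.85% and 8.91% of all genes. The count of 2 became 1 without replicate 1 of the gavage group, and the 0 became 1 without replicate 2 of ethanol alone and with the replicate number as a block. Nr1i2, the pregnane X receptor, stood at 122 and 87.4 CPM with ethanol alone and at 52.7 and 69.3 CPM after the gavage, a log2 fold change of -0.78 with SE 0.26 (adjusted p = 0.226 in edgeR). The repressive nuclear receptor Nr0b2 stood at 50.7 and 37.7 against 13.1 and 11.8 CPM (-1.83, SE 0.21, edgeR adjusted p = 0.108). Nr1i3 (318.5, 398, 399.6 and 374 CPM) and Rxra, the dimer partner of both xenobiotic receptors (469, 488, 473 and 535 CPM), overlapped between the groups. Ahr had 66.6, 107, 50.9 and 66.8 CPM, and Arnt 35.4, 46.2, 49.1 and 51.2 CPM. Ppara (107, 125, 168 and 126 CPM), Nr3c1 (111.2, 123.03, 113.2 and 116.7 CPM) and Esr1 (40.6, 64.6, 56.9 and 99.5 CPM) had log2 fold changes of 0.34, -0.03 and 0.57. Rxrb and Rxrg had -0.11 and -0.16, and Ahrr, the repressor of Ahr, was under 1 CPM in every library and was not tested.

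Of 14 liver transcription factors of P450 genes, 4 were higher at an unadjusted p under 0.05 and 0 were lower, beside 8.91% and 9.85% of all genes. Hnf4a, the most abundant, stood at 872 and 1069 CPM against 859 and 754 CPM, without overlap but with a log2 fold change of -0.27 (SE 0.24). Onecut1 was higher, at 15.9 and 24.1 against 56.5 and 51.6 CPM (1.43, SE 0.25, edgeR adjusted p = 0.133). Foxa3, Tef and Bhlhe40 had log2 fold changes of 1.04, 0.68 and 0.59. Leaving out either gavage library turned the count of 4 to 2, and the 0 lower became 2 without replicate 2 of ethanol alone. Among 10 genes of electron supply and haem, 3 were lower and 1 higher, beside 9.85% and 8.91% of all genes. The 1 higher of 10 was near that share. The 3 became 5 with DESeq2, and the 1 became 0 without replicate 1 of ethanol alone or replicate 2 of the gavage group and 2 without replicate 1 of the gavage group. Cyb5b, the outer mitochondrial cytochrome b5, stood at 583 and 743 against 316 and 346 CPM (-1.003, SE 0.24), and Pgrmc2, a haem-binding membrane protein, at 91.5 and 83.3 against 47.0 and 49.2 CPM (-0.86, SE 0.17). Alas1, the rate-limiting enzyme of haem synthesis, stood at 368 and 455 against 180 and 293 CPM (-0.80, SE 0.31, unadjusted p = 0.0497). Hmox1, which degrades haem, was the higher one, at 22.7 and 30.03 against 42.6 and 76.0 CPM (1.17, SE 0.33). Por, the electron donor of all microsomal P450 enzymes, had 404, 258, 388 and 731 CPM, with overlapping groups. Cyb5a, Cyb5r3, Pgrmc1, Fech and Hmox2 had log2 fold changes of -0.49, -0.39, -0.60, -0.40 and -0.14, each at an unadjusted p above 0.05.

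**Figure D5:**
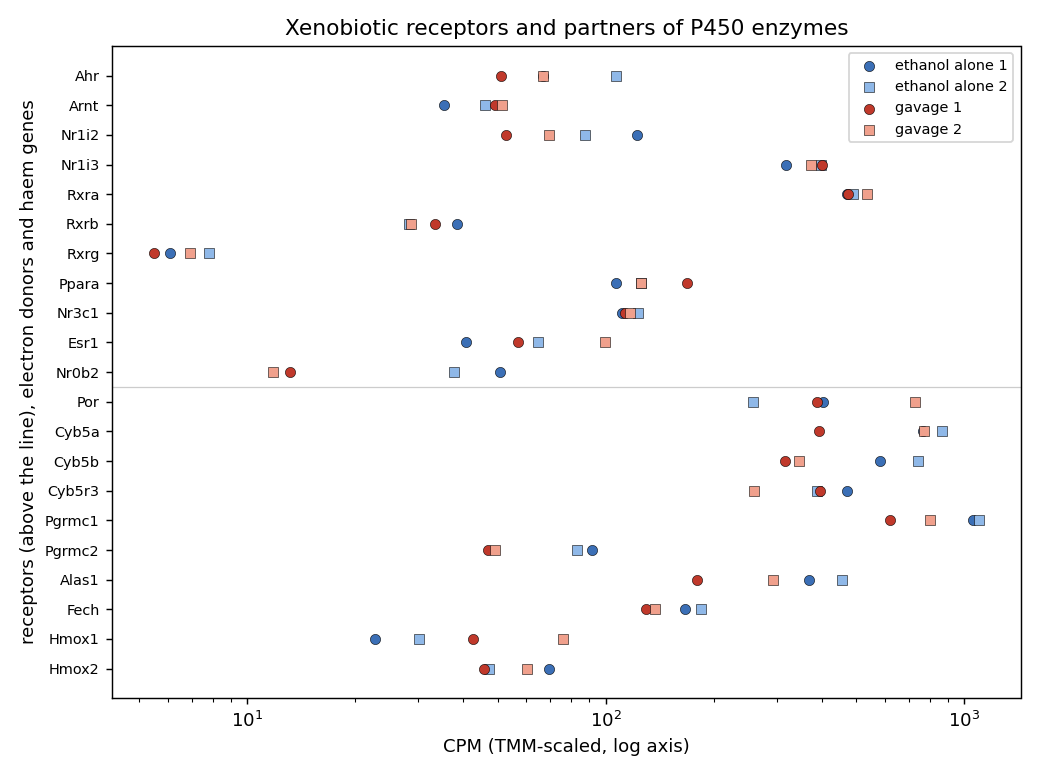
CPM (log axis) of the 11 tested receptors (above the line) and the 10 genes of electron supply and haem (below it), 1 point per library. Nr1i2, Nr0b2, Cyb5b, Pgrmc2 and Alas1 lie lower in both gavage libraries, Hmox1 lies higher, and Nr1i3 and Rxra overlap.

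Other targets of the same receptors were counted in the same fit, where 9.85% of all genes were lower and 8.91% higher at an unadjusted p under 0.05. Of 6 tested targets of Ahr outside the P450 genes, 1 was lower at an unadjusted p under 0.05 (Selenbp1, 156 and 152 against 63.6 and 62.5 CPM, log2 fold change -1.29, SE 0.19), 0 were higher, and the median was -0.20. The 1 became 2 without replicate 1 of ethanol alone, and the 0 became 1 without replicate 2 of ethanol alone, with DESeq2, limma-voom, library totals or a filter at 1 CPM, and 2 with the replicate number as a block. Of 21 tested targets of Nr1i2 and Nr1i3, 6 were lower and 1 higher, with a median of -0.45. Those lower were Aldh1a1, Aldh1a7, Gstt1, Ces2a, Papss2 and Alas1, and Thrsp was higher. The count of 6 became 2 or 3 without replicate 1 or replicate 2 of ethanol alone, 1 without replicate 1 of the gavage group, and 3 with scaling by library totals, and the 1 higher gene became 0 without replicate 1 of ethanol alone and 2 with the replicate number as a block. Gstm1, a glutathione transferase and the most abundant of these by mean CPM, stood at 762, 1404, 550.3 and 909 CPM. Of markers of the zones of the lobule that are not P450 genes, 3 of 11 pericentral genes were lower at an unadjusted p under 0.05 and 1 higher, and 2 of 13 periportal genes were lower and 0 higher, beside 9.85% of all genes lower and 8.91% higher. Their summed levels were 5544, 4870.2, 3564 and 3365 CPM for pericentral and 14676, 16495, 8777 and 14869 CPM for periportal genes. The part of zonation in the P450 values was not tested.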

How the data were processed

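Each library was placed in its group by its title. The deposited values are raw counts per gene symbol, made by the authors. Tools in the submitters' processing notes are STAR 2.6.0a, HTSeq, bcl2fastq 2.20.0.422 and edgeR, on GRCm38, each without its role. Which annotation and strand setting were used, and what was done with multi-mapped reads, is not given in the sources used here. The analysis used edgeR 4.0.16 in R 4.3.3: filterByExpr by group (minimum count 10, minimum total 15) kept 13309 genes, followed by TMM factors and the 2-sided quasi-likelihood F-test with no covariate. P-values were adjusted by Benjamini-Hochberg over all tested genes, with a threshold of 0.05. Each SE equals the size of the log2 fold change over the root of its F statistic. CPM use TMM-scaled library sizes, and sums over a group of genes add all its rows. No pair of libraries agreed within sampling noise (chi-square per degree of freedom 149 within ethanol alone, 158 within gavage). The fit was tested on simulated data.

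Coordinates span whole genes in GENCODE M21 (GRCm38), matched by symbol, with Cyp2c44 matched through its RefSeq synonym. Lengths are the union of exons. Shared stretches are all 50-base windows of a gene's GENCODE transcripts found in a transcript of another gene. Promoter sequences are from RefSeq (GRCm38.p6), aligned end to end with Biopython 1.88. The motif shown was chosen among 6 searched, after the matches were seen. The members, the gene lists and the naming rule were chosen with earlier results of these data known. The rule gives values for the most abundant member of each subfamily, for those at an unadjusted p under 0.05 or an absolute log2 fold change of at least 1 with a mean of at least 1 CPM, for 11 set members, and for genes of the pathway lists. Alternatives were other scaling factors and filters, DESeq2 1.42.0, limma-voom (limma 3.58.1), the likelihood-ratio test, a replicate block and each library left out. The ratios within libraries of the same number were chosen after seeing the data.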

Additional observations from a re-analysis of the deposited data

How the results depend on the processing

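Over 9 other settings and each library left out, 23 of 38 members kept their direction, and 15 turned only when a library was left out; the cause was not tested. Across all genes 0 were called at an adjusted p under 0.05 with edgeR's quasi-likelihood test, 1177 with DESeq2, 549 with the likelihood-ratio test and 0 to 31 with a library left out (12 without ethanol alone replicate 2, 31 without gavage replicate 2). Among members the count of 0 became 8 with DESeq2, 5 with the likelihood-ratio test and 0 to 1 with a library left out, the 1 being Cyp3a16 without ethanol alone replicate 2. With the replicate number as a block (replicate block), 410 genes and 1 member (Cyp2g1) were called. At an unadjusted p under 0.05, that fit had 18 members lower and 2 higher, beside 1623 and 1691 of all 13309 tested genes. No label ties libraries of the same number. With 2 pairs, their deviations from the group means correlated at 0.587 over all tested genes, and the source of this was not tested. Members higher at an unadjusted p under 0.05 numbered 0 in the analysis reported, 1 with DESeq2 and 0 to 4 with a library left out, those lower 13, 16 with DESeq2 and 7 to 15 with a library left out, and the median log2 fold change was -0.61, and from -1.11 to -0.42 with a library left out. With a library left out, the log2 fold change ran from -0.46 to 1.78 for Cyp1b1, -0.88 to 0.26 for Cyp2a12, -0.91 to 5.46 for Cyp2a22, -0.43 to 1.47 for Cyp2a5, -2.09 to 8.12 for Cyp2b10, -0.64 to 1.32 for Cyp2c29 and -0.11 to 1.07 for Cyp2c39. It ran from -0.64 to 0.38 for Cyp2d11, -1.07 to 3.58 for Cyp2s1, -0.89 to 0.44 for Cyp2u1, -1.14 to 0.87 for Cyp3a11, -0.46 to 1.16 for Cyp3a13, -0.14 to 7.94 for Cyp3a16, -2.06 to 0.10 for Cyp3a57 and -1.45 to 1.24 for Cyp3a59. A group left with 1 library was assumed to vary like the other. With 2 libraries a group, the spread between libraries limits these results more than depth, except for members under 1 CPM.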
